A study of Mus musculus with 6 samples.

Results

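Endothelial cells line every blood vessel, and the 9 genes described here are transcripts by which that lining is commonly recognised in mouse tissue. They were taken as the rows of the deposited expression table whose symbol was Pecam1, Cdh5, Kdr, Flt1, Tek, Tie1, Emcn, Esam or Cldn5, and all 9 were present among 53342 genes and were tested. The table compared dental pulp RNA of 3-month-old male C57BL/6 mice carrying intact Mmp13 (WT, n = 3) with that of age-matched mice homozygous for a constitutive loss of this collagenase gene (Mmp13-/-, n = 3), a deletion present in every cell type of the animal. The sample labels give molars as the source, which the sample titles name for WT samples only, whereas the study's methods give incisors. The tooth type is therefore uncertain, and whether it was the same in both genotypes is not known. No batch, date or processing day was given, so a batch effect cannot be told apart from an effect of genotype.

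The dental pulp is a vessel-rich connective tissue enclosed by dentin, and its capillaries form a plexus close to the odontoblasts. Vascular endothelial growth factors act through the tyrosine kinase receptors Kdr (VEGFR-2), which carries most of the growth signal, and Flt1 (VEGFR-1), which binds VEGF-A tightly and can act as a decoy. Angiopoietins act through Tek (Tie2), with which Tie1 associates, and steady signalling by Angpt1 is known to keep vessels quiescent. The cells are joined by the adherens junction protein VE-cadherin (Cdh5), the tight junction protein claudin-5 (Cldn5) and the immunoglobulin-family adhesion molecules Pecam1 and Esam. Emcn encodes endomucin, a sialomucin on the surface of capillary and venous endothelium.

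The genes lie on 7 chromosomes and all are protein-coding. On GRCm38, Pecam1 spans chr11:106654217-106750628 on the minus strand, Cdh5 chr8:104101625-104144511 on the plus strand, Esam chr9:37528078-37538319 on the plus strand and Cldn5 chr16:18776847-18778262 on the plus strand. Kdr spans chr5:75932827-75978458 and Flt1 chr5:147561604-147726011, both on the minus strand. Tek spans chr4:94739289-94874976 on the plus strand, Tie1 chr4:118471191-118490061 on the minus strand and Emcn chr3:137341067-137432185 on the plus strand. Cldn5 has its whole transcript in 1 exon block of 1416 bases, whereas Flt1 has 33 blocks that add up to 13504 bases. Esam shares its chromosome with Mmp13 and starts 30.2 Mb beyond it. An antisense gene, Gm29682, overlaps the Cdh5 locus without sharing an exon base with it.

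Promoter sequences are shown for 4 members because their transcripts moved in opposite directions and their base composition differs widely. They come from RefSeq (GRCm38.p6), which matched 6 of the 9 members (Kdr, Flt1, Tek, Tie1, Emcn and Cldn5). Each run is 5′ to 3′ on the gene's own strand, from 250 to 31 bases before the start. Capitals mark GGAA, the core letters bound by ETS-family factors, which appear as TTCC where the match is on the other strand.
Kdr, chr5:75978486-75978705, minus strand: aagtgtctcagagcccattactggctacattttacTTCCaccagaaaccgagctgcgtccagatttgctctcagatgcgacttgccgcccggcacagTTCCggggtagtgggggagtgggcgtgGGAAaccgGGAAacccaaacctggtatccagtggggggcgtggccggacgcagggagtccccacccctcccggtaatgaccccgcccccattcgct
Flt1, chr5:147726042-147726261, minus strand: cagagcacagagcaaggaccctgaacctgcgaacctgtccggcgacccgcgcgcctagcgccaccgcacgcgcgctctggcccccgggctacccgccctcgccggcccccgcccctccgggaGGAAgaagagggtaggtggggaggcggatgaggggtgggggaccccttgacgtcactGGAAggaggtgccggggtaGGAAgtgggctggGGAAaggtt
Emcn, chr3:137340828-137341047, plus strand: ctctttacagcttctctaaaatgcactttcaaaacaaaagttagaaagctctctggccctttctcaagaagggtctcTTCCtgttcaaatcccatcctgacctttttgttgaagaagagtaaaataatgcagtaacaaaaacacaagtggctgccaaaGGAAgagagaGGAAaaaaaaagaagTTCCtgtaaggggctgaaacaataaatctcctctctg
Cldn5, chr16:18776597-18776816, plus strand: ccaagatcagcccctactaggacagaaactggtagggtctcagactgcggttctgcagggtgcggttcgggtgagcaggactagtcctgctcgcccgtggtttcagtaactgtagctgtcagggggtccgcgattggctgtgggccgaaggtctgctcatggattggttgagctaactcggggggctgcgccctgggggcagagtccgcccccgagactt

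The Kdr, Flt1 and Emcn windows each held 4 GGAA matches, Tek held 2, Tie1 held 6 and Cldn5 held 0. In the Tie1 window 182 of the 220 bases are annotated as exon. A match was present in 91.1% of 32851 RefSeq promoter windows of the same 220 bases, with a median of 2 matches. The longer form AGGAAG, which contains GGAA, was found in 3 of the 6 windows and in 26.1% of all. The GC box letters GGGCGG were found in 3 of 6 and in 28.5% of all, and the forkhead letters TGTTTAC in 0 of 6 and in 2.81% of all. The Emcn window was 39.1% G or C, against 61.8% for Kdr and for Cldn5, 71.4% for Flt1 and a median of 51.8%.

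Depth was 28442936 to 29980236 counts per WT sample and 21561420 to 26547121 per Mmp13-/- sample. Mmp13 itself was counted 827 to 1139 times in WT and 10.2 to 40.4 times in Mmp13-/- samples, a log2 fold change of -4.96 (SE 0.46; edgeR, adjusted p = 7.67e-05). Mmp13-/- sample 6 stood apart from the other 2 of its genotype, with a chi-square per degree of freedom of 446 and 577 against them, compared with 51.0 between those 2 and 27.8 to 53.6 among WT samples. Odorant and vomeronasal receptor genes, which pulp would not be thought to transcribe, gave 0.0970 to 0.118 counts per kilobase of exon in WT, against 1.504, 1.755 and 4.796 for Mmp13-/- samples 1, 2 and 6. Values below are CPM, counts scaled to a common library size with TMM factors, folds come from the quasi-likelihood model of edgeR, p-values are adjusted by the Benjamini-Hochberg method over 24534 genes, and a gene passed at an adjusted p under 0.05.

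Of the 9 endothelial markers, Emcn rose, Cdh5, Kdr, Flt1, Tie1, Esam and Cldn5 fell, and Pecam1 and Tek did not pass the test. The comparison was a broad one, since 51.6% of all genes tested passed, 27.3% as higher and 24.3% as lower in Mmp13-/- pulp. The median log2 fold change of the 9 was -0.61, and that of all genes tested was 0.10. Emcn, upward, and Cldn5, downward, exceeded 2-fold, as did 30.1% of all genes, 20.4% as higher and 9.68% as lower. Between the samples of the 2 genotypes, 1 member did not overlap upward and 6 downward, beside 60.9% of all genes tested, 31.9% upward and 29.1% downward. The 9 transcripts summed to 359 to 411 CPM in WT and 237 to 323 CPM in Mmp13-/- samples, with no overlap. After correction for the GC content of the exons, the summed values overlapped (313 to 363 CPM in WT, 294 to 340 CPM in Mmp13-/- samples), Cdh5, Tie1, Esam and Cldn5 no longer passed, and Pecam1 passed as higher. With total counts in place of TMM factors, only Emcn (higher) and Cldn5 (lower) passed, and the equal-variance test on the deposited log2 values called Emcn, Tie1, Esam and Cldn5. In bulk tissue, fewer endothelial cells and less RNA per cell cannot be told apart.

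**Figure D1:**
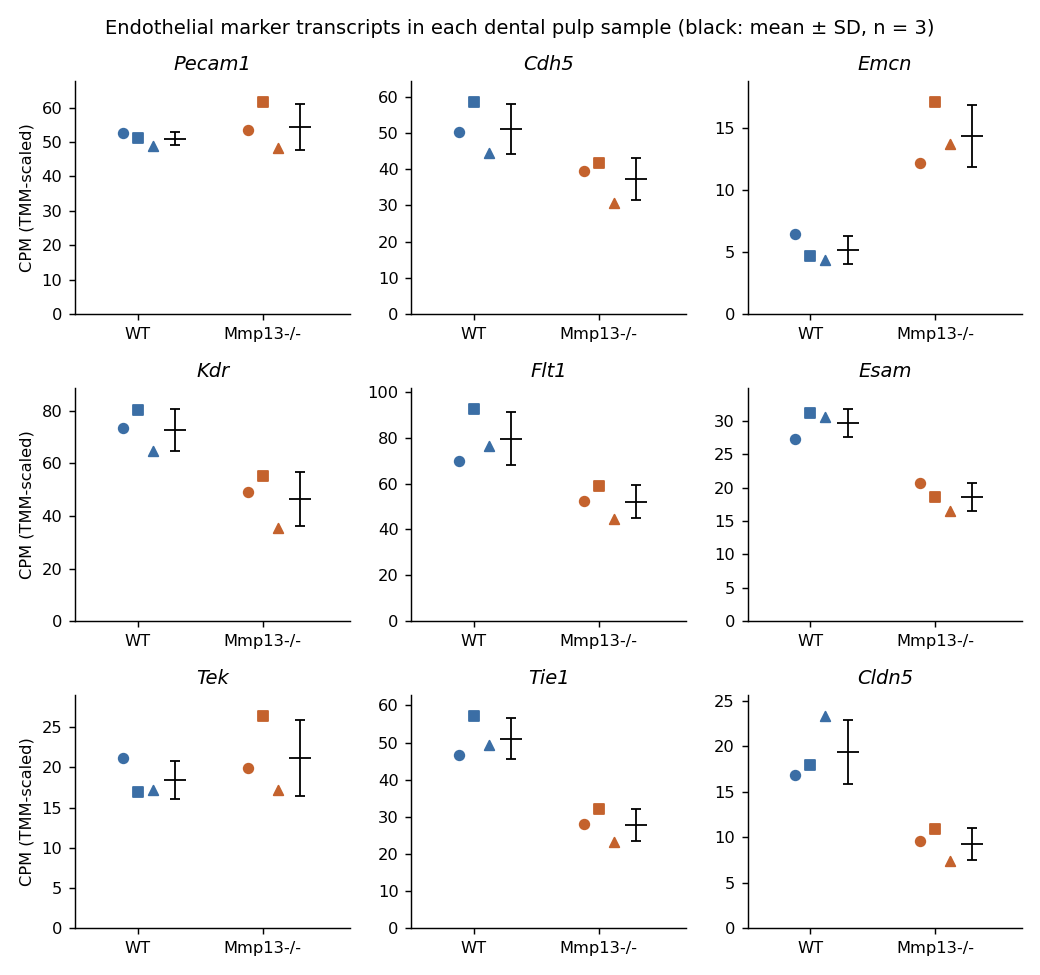
CPM of each endothelial marker (y axis, from 0) in the 3 WT and 3 Mmp13-/- samples, with the mean ± SD in black; circles, squares and triangles are WT 2, 4 and 5 or Mmp13-/- 1, 2 and 6. The genotypes separate for 7 genes, upward for Emcn only, and overlap for Pecam1 and Tek.

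Among the junction and adhesion genes, Cldn5 had the lowest log2 fold change as counted. Cldn5 was at 16.8, 17.9 and 23.4 CPM in WT samples 2, 4 and 5, compared with 9.55, 10.9 and 7.35 CPM in Mmp13-/- samples 1, 2 and 6. Every Mmp13-/- sample lay below every WT sample. The log2 fold change was -1.06 (SE 0.19, adjusted p = 0.00153 by edgeR), or 2.08-fold lower, and it ranged from -1.24 to -0.92 when each sample was left out in turn, so the 2-fold mark was not met in every fit. With the GC correction it was 0.05 (edgeR, adjusted p = 0.849), and the call was lost.

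Esam, an adhesion molecule of endothelial tight junctions that platelets also carry, was at 27.3, 31.2 and 30.5 CPM in WT, compared with 20.7, 18.6 and 16.6 CPM in Mmp13-/- samples. The groups did not overlap, and the log2 fold change was -0.67 (SE 0.14; edgeR, adjusted p = 0.00337). Cdh5, which encodes the cadherin of the endothelial adherens junction, was at 50.2, 58.4 and 44.6 CPM in WT, compared with 39.5, 41.8 and 30.7 CPM in Mmp13-/- samples. The Cdh5 values also did not overlap, with a log2 fold change of -0.45 (SE 0.16; edgeR, adjusted p = 0.0419). That call was lost in 3 of the 6 fits that left out a sample, where the edgeR adjusted p was 0.0557 without WT sample 2, 0.130 without WT sample 4 and 0.0821 without Mmp13-/- sample 6.

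Pecam1, the fourth junctional gene, is also carried by platelets and leukocytes. It was at 52.8, 51.3 and 48.9 CPM in WT, compared with 53.4, 61.6 and 48.3 CPM in Mmp13-/- samples, and the groups overlapped. Its log2 fold change was 0.09, with a 95% interval from -0.22 to 0.41 (edgeR, adjusted p = 0.599). Pecam1 and Cdh5 had nearly the same mean in WT, 51.0 and 51.1 CPM, and stood at 54.4 and 37.3 CPM in Mmp13-/- pulp. Summed leukocyte markers were at 157 to 217 CPM in WT, against 608 to 1350 CPM in Mmp13-/- samples, and 8 of 11 tested passed as higher and 0 as lower. Much of that sum was S100a8 and S100a9, and without them it was 143 to 196 CPM in WT, against 260 to 460 CPM in Mmp13-/- samples. Summed platelet markers went from 84.4 to 135 CPM in WT to 137 to 207 CPM, with 4 of 10 higher and 0 lower. The part of these cells in the Pecam1 and Esam values was not tested.

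Both VEGF receptors fell. Kdr was at 73.3, 80.3 and 64.5 CPM in WT, compared with 49.1, 55.3 and 35.2 CPM in Mmp13-/- samples. The groups did not overlap, with Mmp13-/- sample 6 the lowest, and the log2 fold change was -0.64 (SE 0.18; edgeR, adjusted p = 0.0145). Without WT sample 4 the adjusted p for Kdr was 0.0513. Flt1 was at 70.0, 92.6 and 76.4 CPM in WT, compared with 52.5, 59.1 and 44.7 CPM in Mmp13-/- samples. Flt1 values did not overlap either, and its log2 fold change was -0.61 (SE 0.16; edgeR, adjusted p = 0.0108).

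Within a sample the Kdr to Flt1 count ratio was 1.05, 0.868 and 0.844 in WT, compared with 0.936, 0.937 and 0.788 in Mmp13-/- samples. The ratios overlapped, with means of 0.920 ± 0.111 and 0.887 ± 0.0857 (SD, n = 3).

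Of the angiopoietin receptor pair, Tie1 fell and Tek did not pass the test. Tie1 was at 46.6, 57.2 and 49.2 CPM in WT, compared with 27.9, 32.0 and 23.3 CPM in Mmp13-/- samples. The Tie1 groups were separated by a wide gap, with a log2 fold change of -0.88 (SE 0.16; edgeR, adjusted p = 0.00147). Tek, the receptor that binds angiopoietins directly, was at 21.2, 17.0 and 17.2 CPM in WT, compared with 19.97, 26.4 and 17.2 CPM in Mmp13-/- samples. The Tek groups overlapped, and its log2 fold change was 0.20, with a 95% interval from -0.20 to 0.61 (edgeR, adjusted p = 0.376). The Tek to Tie1 count ratio went from 0.367 ± 0.0809 in WT to 0.760 ± 0.0577 in Mmp13-/- samples (SD, n = 3), with no overlap. From GC-corrected CPM, described further on, the same ratio was 0.508 ± 0.0691 in WT, against 0.543 ± 0.0365 in Mmp13-/- samples, and the groups overlapped. The gene pairs for these ratios were chosen after the values were seen, so they carry no test.

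Emcn was the only member to rise as counted. It was at 6.46, 4.68 and 4.42 CPM in WT, compared with 12.2, 17.1 and 13.7 CPM in Mmp13-/- samples. The lowest Mmp13-/- sample was nearly at double the highest WT sample, and the log2 fold change was 1.47 (SE 0.21; edgeR, adjusted p = 3.79e-04), or 2.77-fold higher. Emcn passed in each of the 6 fits that left out a sample, between 1.26 and 1.58. Endomucin is known on hematopoietic stem cells as well as on endothelium. Summed hematopoietic progenitor markers went from 64.6 to 70.9 CPM in WT to 96.2 to 116 CPM in Mmp13-/- samples, with 6 of 8 higher and 0 lower, and their part in the Emcn value was not tested.

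Read per kilobase of exon, which allows levels to be compared between genes, Cldn5 was highest as counted in WT pulp, at 13.7 ± 2.46 CPM per kilobase, followed by Cdh5 at 12.2 ± 1.66, Tie1 at 10.4 ± 1.12 and Esam at 10.4 ± 0.726 (SD, n = 3). Neighbours among these 4 overlapped between samples. Pecam1 at 8.19 ± 0.309 and Kdr at 8.05 ± 0.878 CPM per kilobase formed the next, overlapping pair. Flt1 at 5.90 ± 0.860, Tek at 3.91 ± 0.508 and Emcn at 0.958 ± 0.205 CPM per kilobase each lay clear of the gene above. From GC-corrected CPM the WT order began with Cdh5 at 10.3 ± 1.36 and Cldn5 at 9.31 ± 1.68 CPM per kilobase, which overlapped. Exon lengths are those of GENCODE M21 with all isoforms joined.

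In Mmp13-/- pulp Cdh5 and Pecam1 led as counted, at 8.88 ± 1.39 and 8.74 ± 1.07 CPM per kilobase, and overlapped. Cldn5 stood at 6.54 ± 1.26, Esam at 6.49 ± 0.715, Tie1 at 5.64 ± 0.888, Kdr at 5.16 ± 1.14, Tek at 4.50 ± 1.01 and Flt1 at 3.86 ± 0.533 CPM per kilobase, and each neighbour in that order overlapped the next. Emcn remained the lowest at 2.65 ± 0.463 CPM per kilobase. From GC-corrected CPM the Mmp13-/- order began with Cdh5 at 10.4 ± 0.808, Cldn5 at 9.57 ± 1.48 and Pecam1 at 9.44 ± 0.662 CPM per kilobase. These values overlapped, and Cldn5 came after Cdh5 as it did in corrected WT values.

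By sample, Mmp13-/- sample 6 gave the lowest Mmp13-/- value as counted for 8 of the 9 genes, all but Emcn. From GC-corrected CPM it was the lowest for Cdh5, Kdr, Tie1 and Cldn5 only. In the fit as counted without sample 6, 1 member was higher and 5 were lower. The summed CPM in that sample was 237, against 285 and 323 in Mmp13-/- samples 1 and 2. Over the 6 samples the transcripts most like the mean of the members' log2 CPM were Tnfrsf19 (r = 0.999), Prkacb (r = 0.998), Copg1 (r = 0.996), Phactr2 (r = 0.995) and Sav1 (r = 0.994), out of 10785 genes compared. These Pearson coefficients describe 6 points that form 2 genotype groups and share library and depth. The members' mean joins unlike profiles, since Emcn ran against Esam (r = -0.96) while Flt1 and Tie1 ran together (r = 0.98).

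The fold changes of the members followed the GC content of their exons. Over 16983 protein-coding genes tested, the Spearman rank correlation between log2 fold change and GC content was -0.575, and over the 9 members it was -0.85 (a description, n = 9 genes of the same 6 libraries). Protein-coding genes of 60 to 62% GC had a median log2 fold change of -1.04, beside -1.06 for Cldn5 at 60.5%. Those of 56 to 58% had -0.73, beside -0.88 for Tie1 at 57.8%, and those of 54 to 56% had -0.56, beside -0.67 for Esam at 54.4%. Cdh5 at 52.5% GC stood at -0.45, where the 52 to 54% class had a median of -0.39. Tek at 47.2% stood at 0.20, beside 0.22 for the 46 to 48% class. Emcn, Kdr and Flt1 departed further from their class. Emcn was at 1.47 and 42.2% GC against a median of 0.80 for 42 to 44%. Kdr and Flt1 were at -0.64 and -0.61 with 48.6% and 49.0% GC against 0.02 for 48 to 50%. Kdr and Flt1 lay below the 25th percentile of that class, -0.36, while Emcn was just above the 75th percentile of its own, 1.45. Pecam1 at 49.8% GC was at 0.09, within its class.

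**Figure D2:**
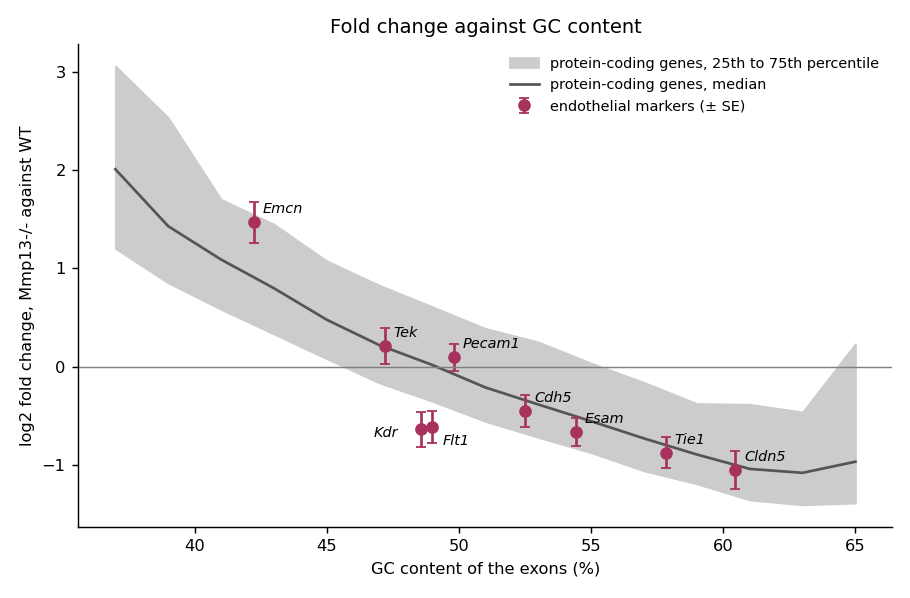
Log2 fold change of Mmp13-/- against WT (y axis) by GC content of the exons (x axis, %). The line is the median and the band the 25th to 75th percentile of protein-coding genes in classes of 2% GC (the end classes hold all genes beyond them), and points are the endothelial markers with standard errors. Kdr and Flt1 lie under the band, and Emcn at its upper edge.

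When the counts of each sample were corrected for GC content, the calls of 5 members changed. In that fit 35.7% of all genes passed, 22.9% as higher and 12.8% as lower. Kdr (log2 fold change -0.55, SE 0.13, adjusted p = 0.0142) and Flt1 (-0.47, SE 0.13, adjusted p = 0.0219) were still lower by edgeR. Corrected CPM for Kdr were 69.8, 78.7 and 61.5 in WT, compared with 48.2, 54.0 and 41.3 in Mmp13-/- samples, without overlap. Corrected CPM for Flt1 were 66.0, 88.8 and 71.8 in WT, compared with 52.3, 58.6 and 53.1 in Mmp13-/- samples, again without overlap.

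Emcn was still higher after the correction, at 7.38, 6.44 and 5.39 corrected CPM in WT, compared with 9.07, 12.7 and 13.01 in Mmp13-/- samples, but its log2 fold change went from 1.47 to 0.85 (SE 0.19; edgeR, adjusted p = 0.0106). Pecam1 passed as higher only with the correction, at a log2 fold change of 0.32 (SE 0.09; edgeR, adjusted p = 0.0283). Corrected Pecam1 was at 48.9, 47.5 and 44.7 CPM in WT, compared with 54.7, 62.9 and 58.7 CPM in Mmp13-/- samples, which did not overlap. Cdh5, Tie1, Esam and Cldn5 no longer passed, with log2 fold changes of 0.01, 0.05, -0.03 and 0.05 (edgeR, adjusted p = 0.735 to 0.946), and their corrected values overlapped between genotypes. Tek did not pass in either fit (log2 fold change 0.15 with the correction; edgeR, adjusted p = 0.419). The median of the 9 was 0.05 after the correction, and that of all genes 0.20. A GC-dependent difference between the libraries cannot be told apart from genotype, because no preparation shared by WT and Mmp13-/- samples was recorded.

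**Figure D3:**
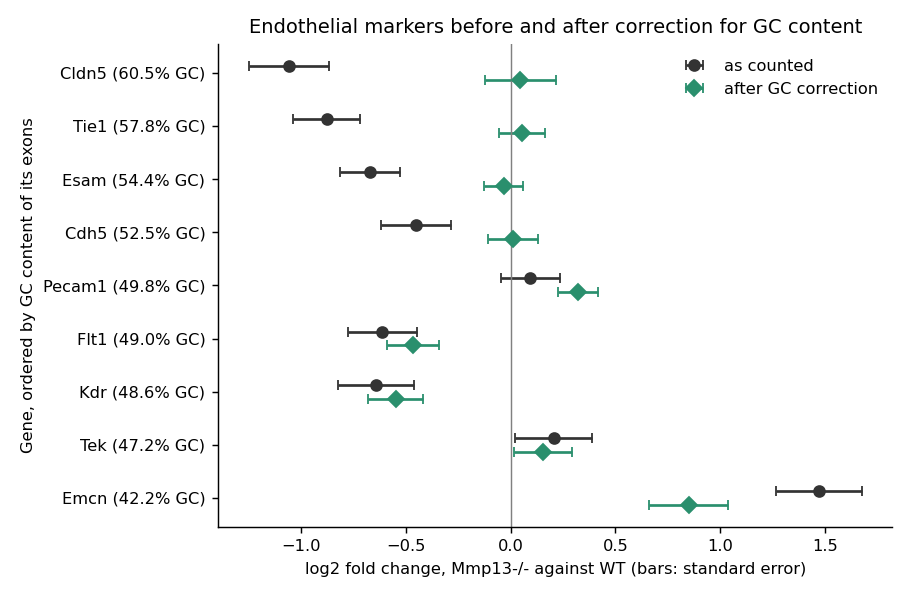
Log2 fold change (x axis) of each endothelial marker as counted (circles) and after GC correction (diamonds), with standard errors, ordered by GC content (y axis). Kdr, Flt1 and Emcn keep their side of 0, while Cdh5, Esam, Tie1 and Cldn5 move to near 0.

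Subtracting the receptor-gene background, an alternative added after the data were seen, left 6 of the 7 calls in place, with log2 fold changes of 1.56 for Emcn, -0.52 for Kdr, -0.50 for Flt1, -0.75 for Tie1, -0.54 for Esam and -0.93 for Cldn5. Cdh5 did not pass in that fit (log2 fold change -0.31; edgeR, adjusted p = 0.0874).

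Of 12 listed genes for ligands and co-receptors of these receptors, 3 fell, 2 rose and 7 did not pass, and the median log2 fold change was -0.18. Vegfa, the main ligand of Kdr and Flt1, was at 236, 231 and 233 CPM in WT, compared with 83.2, 85.0 and 51.3 CPM in Mmp13-/- samples. The Vegfa groups lay far apart, with a log2 fold change of -1.67 (SE 0.21; edgeR, adjusted p = 2.13e-04). Vegfb, a ligand of Flt1, was at 27.4, 30.2 and 25.3 CPM in WT, compared with 7.49, 8.42 and 7.30 CPM in Mmp13-/- samples (log2 fold change -1.83, SE 0.15; edgeR, adjusted p = 4.62e-05). Vegfc, which acts mainly through Flt4, was at 5.97, 7.43 and 5.88 CPM in WT, compared with 3.43, 3.58 and 3.76 CPM in Mmp13-/- samples (log2 fold change -0.84, SE 0.19; edgeR, adjusted p = 0.00462). Neither of these ligands overlapped between genotypes.

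The Tek ligands Angpt1 and Angpt2 rose, and Angpt4 did not pass. Angpt1, made chiefly by cells around the endothelium, was at 4.32, 2.48 and 3.47 CPM in WT, compared with 22.6, 23.4 and 19.2 CPM in Mmp13-/- samples, a log2 fold change of 2.67 (SE 0.21; edgeR, adjusted p = 4.58e-05). Angpt2, made by endothelial cells and known as a context-dependent antagonist of Tek, was at 6.77, 5.71 and 5.62 CPM in WT, compared with 11.4, 13.8 and 12.6 CPM in Mmp13-/- samples, a log2 fold change of 1.06 (SE 0.16; edgeR, adjusted p = 6.54e-04). Neither ligand overlapped between genotypes, and the Angpt2 to Angpt1 count ratio went from 1.83 ± 0.410 in WT to 0.584 ± 0.0752 in Mmp13-/- samples (SD, n = 3), a log2 difference of -1.63 that was -0.52 from GC-corrected CPM. The Vegfa to Kdr count ratio went from 3.24 ± 0.371 to 1.56 ± 0.121, a log2 difference of -1.05 that was -0.49 from GC-corrected CPM. Neither ratio overlapped between genotypes, as counted or corrected.

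The calls of these 5 ligands held with the GC correction, at log2 fold changes of -1.02 for Vegfa, -0.70 for Vegfb, -0.71 for Vegfc, 1.60 for Angpt1 and 1.09 for Angpt2 (edgeR, adjusted p = 2.73e-04 to 0.0254). Vegfd, Pgf, Angpt4, Flt4, Nrp1, Nrp2 and Ptprb did not pass in either fit, with log2 fold changes as counted between -0.37 and 0.05.

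**Figure D4:**
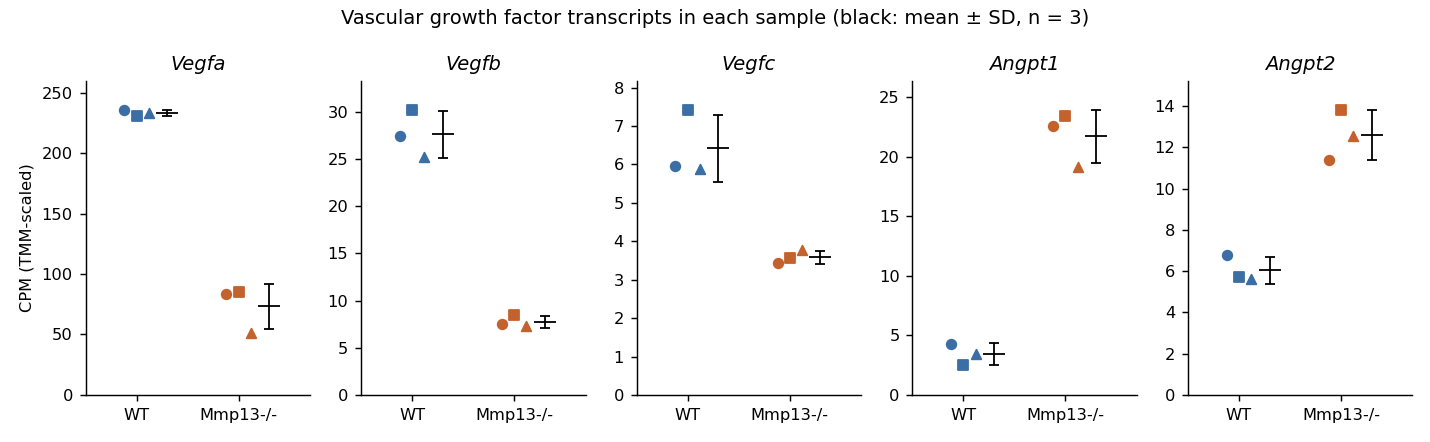
CPM (y axis, from 0) of the 5 vascular growth factor genes that passed the test, in the 3 WT and 3 Mmp13-/- samples, with the mean ± SD in black. Vegfa, Vegfb and Vegfc are lower and Angpt1 and Angpt2 higher in every Mmp13-/- sample than in every WT sample.

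Other endothelial genes moved in both directions as counted. Of 18 further pan-endothelial genes, 9 fell, 2 rose and 7 did not pass, with a median log2 fold change of -0.35. Those with the lowest values were Ushbp1 (log2 fold change -1.07), the TGF-beta co-receptor Eng (-0.93) and the secreted vascular factor Egfl7 (-0.91). The sialomucin gene Cd34 (0.54) and Ecscr (0.68) rose, calls that held in 2 and 1 of the 6 fits that left out a sample. With the GC correction 4 of the 18 were higher, 1 was lower and 13 did not pass, and the median was -0.01.

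Of 15 endothelial transcription factor genes tested, 8 fell, 2 rose and 5 did not pass, with a median of -0.61. The lowest were Sox18 (-1.05), the flow-responsive factor Klf2 (-0.89) and Sox17 (-0.84), and Tal1 (1.08) and Fli1 (0.43) rose, both of which blood cells also use. The Fli1 call held in 1 of the 6 fits that left out a sample and not with the GC correction (0.22; edgeR, adjusted p = 0.124). Erg, an ETS factor of endothelium, had a log2 fold change of 0.20 (edgeR, adjusted p = 0.348), and with the GC correction it passed as higher at 0.65 (edgeR, adjusted p = 0.0137). A sixteenth gene, Etv2, was too low to test. With the GC correction 4 were higher and 2 lower, and Sox18 (0.08) and Klf2 (0.29) had turned above 0 without passing.

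Among arterial genes 5 of 8 fell, led by the netrin receptor gene Unc5b (-1.37), Efnb2 (-0.99) and the connexin gene Gja4 (-0.94), and 1 rose, Bmx (1.64). Among venous genes 3 of 6 fell, Ephb4 (-1.09), Aplnr (-0.82) and Nr2f2 (-0.76), and the adhesion molecule gene Sele rose (1.68). Among capillary and tip cell genes Pdgfb (-1.20) and Plvap (-0.65) fell, Cd36 rose (1.42) and 6 of 9 did not pass. With the GC correction, 1 arterial, 2 venous and 0 capillary genes were lower, and 1, 2 and 1 were higher. In that fit Gja4 stood at 0.05 without passing, and Plvap turned to higher (0.47; edgeR, adjusted p = 0.0200).

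Of 4 lymphatic endothelial genes, 0 passed in either direction, as counted and with the GC correction. Of 12 other junction genes, which epithelium and other cells share with endothelium, 3 fell, among them Jup (-1.01) and F11r (-0.45), and 9 did not pass. F11r passed in 2 of the 6 fits that left out a sample. With the GC correction 0 of these junction genes were lower and 1 was higher, and Jup (-0.12) and F11r (-0.07) did not pass. Of 10 mural cell genes, 5 fell, 3 rose and 2 did not pass. Des (-1.96), which skeletal muscle also uses, Cspg4 (-1.26) and Notch3 (-1.12) were the lowest, and Rgs5 (1.49), Tagln (0.53) and Acta2 (0.43) rose. Tagln passed in 2 and Acta2 in 1 of the 6 fits that left out a sample. With the GC correction 2 of the 10 mural genes were lower and 4 were higher. Des, Rgs5, Tagln (0.91) and Acta2 (0.67) were called in the same direction in that fit, whereas Cspg4 and Notch3 did not pass.

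**Figure D5:**
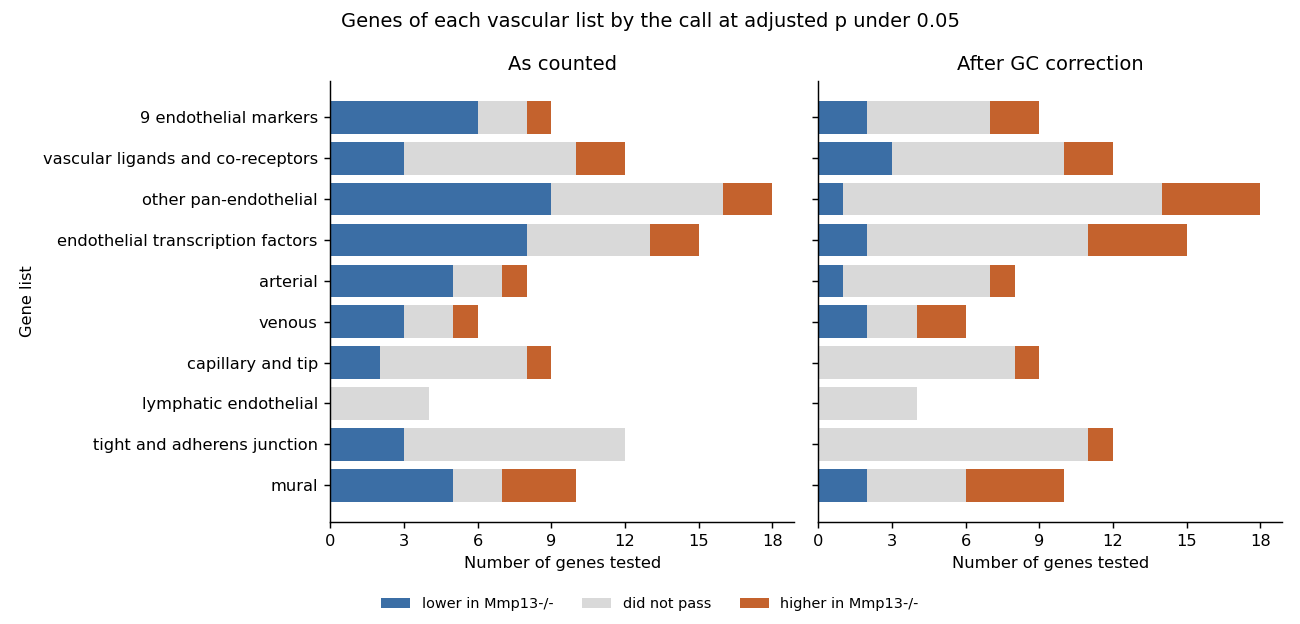
Number of genes tested (x axis) in each vascular gene list (y axis) that were lower, did not pass or were higher in Mmp13-/- pulp, as counted (left) and after GC correction (right). The endothelial markers go from 6 lower and 1 higher to 2 lower and 2 higher.

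Markers of other cell types also differed between genotypes. Summed skeletal muscle markers were at 45683 to 54105 CPM in WT and 8885 to 20646 CPM in Mmp13-/- samples, with 8 of 10 lower and 0 higher. Of the 8 odontoblast and pulp markers, which check the labelled tissue, 5 were lower and 2 higher. Their summed level, 72398 to 83140 CPM in WT against 21998 to 29587 CPM in Mmp13-/- samples, was mostly Col1a1, Col1a2 and Col3a1, which fibroblasts and bone also make. The odontoblast genes Dspp (log2 fold change 1.13) and Phex (1.68) rose, though Dspp values overlapped between genotypes. Their log2 fold changes with the GC correction were 1.21 for Dspp and 0.69 for Phex. Of the other markers without the collagens, Nes (log2 fold change -1.21) and Thy1 (-0.51) fell, and Dmp1 (-0.22) did not pass. With the GC correction Nes (-0.41), Thy1 (0.20) and Dmp1 (0.08) did not pass. The 5 markers without the collagens summed to 1054 to 2281 CPM in WT, against 2074 to 3114 CPM in Mmp13-/- samples, and these ranges overlapped. Dspp was the largest part of that sum, at 1646, 524 and 725 CPM in WT, against 2341, 2422 and 1571 CPM in Mmp13-/- samples. Summed erythroid markers went from 899 to 1467 CPM in WT to 2131 to 3999 CPM, with 7 of 9 higher and 0 lower. Epithelial markers went from 1902 to 3998 CPM in WT to 965 to 1554 CPM, with 1 of 6 higher and 2 lower. Most of that sum was Krt14 and Krt5, the 2 that fell (log2 fold change -1.33 and -1.31). Krt18 rose (1.17), and Epcam, Cdh1 and Krt8 did not pass. With the GC correction, 5 muscle, 3 odontoblast and pulp, 0 erythroid and 0 epithelial markers were lower. In that fit 0, 2, 9 and 3 were higher, so the epithelial calls did not stay lower. Of the listed genes, Ahsp was not matched in the table and Itgam was listed at 0 in all samples. Muscle, bone and marrow hold vessels of their own, and the part of these tissues in the endothelial values was not tested.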

How the data were processed

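RNA-seq of 6 dental pulp samples (3 WT, 3 Mmp13-/-) was analysed. The authors quantified aligned reads per gene in Strand NGS, as estimated counts; mm10 and DESeq are named in the submitters' processing notes, and the aligner's settings, annotation and strand setting are not given in the sources used here. The deposited table holds those estimated counts, which are not whole numbers, and values that the authors scaled by the DESeq method, gave on a log2 scale and centred on each gene's median over the samples. The study calls the samples independent biological replicates, and the labels do not say which animals they came from.

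Counts were rounded and tested in edgeR 4.0.16 (R 4.3.3; TMM, filterByExpr by genotype, quasi-likelihood test, Benjamini-Hochberg adjustment), 3 against 3 with no covariate. Depth was 21561420 to 29980236 counts, and a floor of 3 counts was 0.100 to 0.139 CPM; this covers counting error only. GC content and exon length were taken from GENCODE M21 by Ensembl ID (99.8% of 53342 genes matched). GC content of the exons was pooled over all transcript sequences of a gene, so bases shared by several isoforms counted once for each isoform. The GC correction fitted a loess curve (span 0.4) on GC content in each sample, over genes with a mean log2 CPM above 3. The quantity fitted was the difference of a gene's log2 CPM from its mean over all 6 samples, WT and Mmp13-/- together. Alternatives were other size factors, other filters, DESeq2 1.42.0, limma 3.58.1 and an equal-variance test on the deposited log2 values, leaving out each sample, and, added after seeing the data, subtraction of a background rate set by 1409 odorant and vomeronasal receptor genes. No pair of samples agreed within counting noise, so none was merged as a repeat deposit.

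Named genes were the 9 members, Mmp13, every vascular ligand and co-receptor, from each other list at most the 3 highest and 3 lowest tested, genes that could not be tested, and the 5 genes most like the members' mean. Nes and Thy1 were named besides, so that every odontoblast and pulp marker is given. Members and lists were chosen with earlier results of these data known. The value of 1 junction gene is not reported here.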

Additional observations from a re-analysis of the deposited data

How the results depend on the processing

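Emcn (log2 fold change 0.82 to 1.68) passed under all 17 alternatives, and Vegfa, Vegfb, Vegfc, Angpt1 and Angpt2 did so too. The number of members called higher was 1, and it became 2 with upper-quartile factors, with the GC correction, and with background subtraction plus GC correction, Pecam1 being the added gene. The number called lower was 6, and it was 1 with total counts, 3 with the equal-variance test, and 2 with the GC correction, with or without background subtraction. Leaving out each sample gave 4 to 6 lower. With the GC correction alone, and then with background subtraction as well, the direction turned for Cdh5 (0.012, 0.035), Tie1 (0.053, 0.061), Cldn5 (0.047, 0.057), Sox18 (0.084, 0.056), Klf2 (0.29, 0.29), Gja4 (0.052, 0.0020) and Plvap (0.47, 0.50), and with the pair also for Eng (0.0049) and Egfl7 (0.018). Pecam1 turned to -0.012 with no filter and ranged from -0.061 to 0.17 when each sample was left out, and Tek from -0.043 to 0.33. Over all genes, calls over 2-fold numbered 7381, against 4666 with at least 10 counts in every sample, 14325 with no filter, 4619 with the GC correction and 3446 with background subtraction as well. Calls at any fold numbered 12665, against 19292 with no filter and 7610 with background subtraction plus GC correction. In the other lists 40 genes were higher and 53 lower; the lower count was 29 with total counts, 23 with the equal-variance test, 19 with the GC correction and 19 with background subtraction as well, and the higher count was 15 with the equal-variance test. The share of calls over 2-fold that were higher was 67.8%, against 81.4% with upper-quartile factors, 77.2% with total counts, 78.6% with no filter and 83.1% with the GC correction. Upper-quartile factors moved the median of all genes by 0.21, total counts by 0.11 and no filter by -0.11. Apart from what each alternative changes by construction, the cause was not tested. No paired analysis was possible because the genotypes share only replicate number 2. With 3 samples per genotype, a permutation of the samples cannot give a p below 0.1, so single ratios carry no test.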
